A study of Mus musculus with 2 samples.

Results

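Megakaryocyte and erythroid progenitors were compared within each of 2 libraries of single mouse bone marrow cells, and the comparison was then set side by side between the libraries. The members were the cells whose deposited class was Pf4, named after a platelet granule chemokine, or Car1, named after carbonic anhydrase 1, an enzyme of early erythroid cells: 7217 of 14795 cells. The Control library held 222 Pf4-class and 2210 Car1-class cells among 6906, and the library labelled Runx1 KO held 1782 and 3003 among 7889. Pf4-class cells made up 9.13% of both classes in Control (exact binomial 95% interval 8.01 to 10.3%) and 37.2% in KO-labelled cells (35.9 to 38.6%), so that 9.95 and 1.69 Car1-class cells stood against each Pf4-class cell. Since these are shares within a sort, a higher share of one class and a lower number of the other cannot be told apart.

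All cells came from C57BL/6 marrow of crushed hind limbs, sorted as Lineage-, c-Kit+, Sca1- (LKS-), a gate for committed myeloid, erythroid and megakaryocyte progenitors, and were run with the 10x Genomics 3′ kit, version 3. Control combined the marrow of 1 Runx1f/f mouse with that of 1 Runx1f/- mouse, whose germline mutation hits a single Runx1 allele, so the control cells were in part heterozygous. The sources used here do not give the ages, nor, for the KO-labelled library, the number of mice and the means of deletion, and 1 label field speaks of embryos where the tissue fields name marrow. With 1 library per genotype there is no test and no spread between animals. Intervals cover counting error only, and a difference between libraries cannot be told apart from one between animals or preparations. The title of the series asks about Runx1 and cytokines of neutrophils, not about these fates.

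Erythroid and megakaryocyte cells arise from a common progenitor, and GATA1 with its cofactors serves both. KLF1 drives the erythroid programme of haem, iron and membrane genes, while RUNX1, FLI1 and ETS factors drive the megakaryocyte programme of platelet receptors, granules and cytoskeleton. Erythropoietin acts on the receptor EPOR. Cells before this choice are known to hold low transcript levels of both programmes.

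The class UMIs (unique molecular identifiers, each a captured transcript) were 4371776 for Pf4 and 44943983 for Car1 in Control, and 25129755 and 49700115 in KO-labelled cells; median UMIs per cell ranged from 13028.5 to 18341.5 over the 4 sets. Levels are given as CPM, the counts per 1000000 summed UMIs of a class. Runx1 itself was at 253 CPM in Pf4-class and 116 in Car1-class cells of Control, and at 668 and 310 in KO-labelled cells. Runx1 transcripts were thus 2.64-fold higher (2.49 to 2.81) in the KO-labelled Pf4 class and 2.67-fold higher (2.58 to 2.75) in the Car1 class, the opposite of what a loss of transcript would give. A 3′ tag outside the deleted part checks nothing, and the sources used here do not say which part was deleted, so the library is called by its label throughout.

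Summed over each class, the markers lay on the side of its name. The 12 megakaryocyte markers summed to 6804 CPM in Pf4-class and 339.9 in Car1-class cells of Control, and to 7570 and 912.6 in KO-labelled cells. The 14 erythroid markers summed to 490.0 and 4401 CPM in Control and to 538.5 and 1799 in KO-labelled cells. Cell by cell the name Car1 was loose in the KO-labelled library, where 54.8% of the 3003 cells held more erythroid than megakaryocyte marker UMIs and 43.1% the reverse. The Car1 class is early: of 10 globin genes in the files 1 was measured, Hbb-bt, at 6.70 CPM in the Control and 31.1 CPM in the KO-labelled Car1 class. Markers of other lineages ranged widely in these classes. Macrophage markers summed to at most 8.69 CPM and eosinophil markers to at most 4.80 CPM, while neutrophil progenitor markers summed to between 257 and 550.4 CPM. Multipotent progenitor markers summed to 398.9 and 628.4 CPM in the Control and KO-labelled Pf4 classes, lymphoid markers to at most 303.3 CPM, in the Control Pf4 class, and basophil and mast cell markers to 136.6 CPM in the Control Car1 class. The lymphoid sum of the Control Pf4 class was almost all Nkg7, at 299.2 CPM, while Il7r, Cd79a, Cd3e and Ccl5 had 0 UMIs there. Nkg7 was higher still in the neutrophil-lineage Gstm1/CD63 class. Meis1, also on the list of megakaryocyte factors, gave 281.1 CPM of the multipotent sum in the Control Pf4 class. It was the highest member in the KO-labelled Pf4 class too. These sums therefore do not show that lymphoid or multipotent cells were present. The part of cells of other lineages in the results was not tested.

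For each gene the contrast was the log2 of the Pf4-class CPM over the Car1-class CPM, with 10 CPM added to both, and a gene was counted on one side from a contrast of 2-fold. Of 5288 measured genes (at least 30 CPM in 1 of the 4 class sums and 100 UMIs over them), 236 (4.46%) lay on the Pf4 side and 142 (2.69%) on the Car1 side in Control. In the KO-labelled library 223 (4.22%) lay on the Pf4 side and 95 (1.80%) on the Car1 side. The classes were made from the same transcripts, so these counts describe the classes and test nothing. The 2 libraries had 162 Pf4-side genes in common, 68.6% of the Control list and 72.6% of the KO-labelled list. They had 85 Car1-side genes in common, 59.9% and 89.5% of the lists. No gene was past 2-fold on opposite sides. Across genes, which are not independent and share the 4 sums' classes, the contrasts of the libraries correlated with a Pearson r of 0.85 and a Spearman rho of 0.76.

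**Figure D1:**
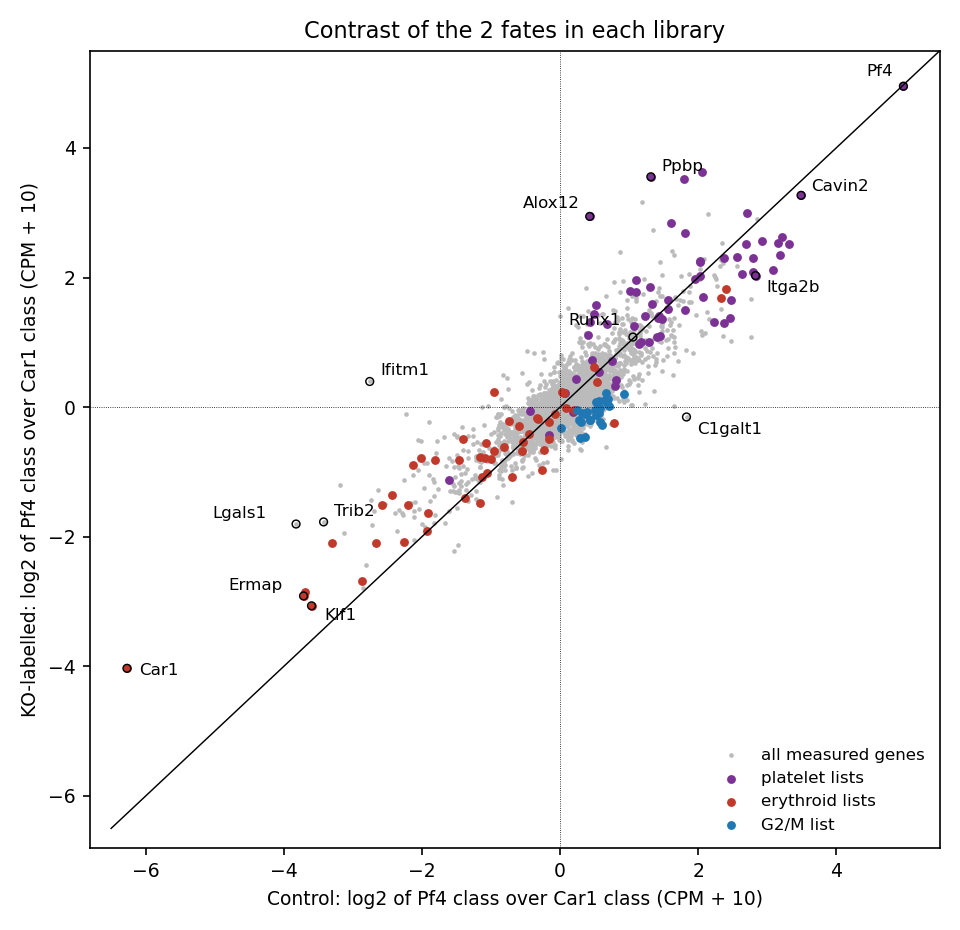
Contrast of the Pf4 class against the Car1 class in Control (x axis) and in KO-labelled cells (y axis), both log2 of CPM + 10, 1 point per measured gene, with list members coloured and 13 named genes circled. Pf4 lies on the diagonal, Car1, Lgals1 and Ifitm1 lie above it, nearer to 0 or past it, and the G2/M genes lie below it.

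Pf4 itself led the Pf4 side. It was at 5116 CPM in Pf4-class and 153 in Car1-class cells of Control, and at 3469 and 102 in KO-labelled cells. The ratio between the classes was 33.4 (32.5 to 34.3) in Control and 33.9 (33.0 to 34.9) in KO-labelled cells. In the Gstm1/CD63 class, neutrophil-lineage cells that should lack it, Pf4 was at 14.5 and 74.9 CPM, and the part of free RNA in the ratios was not tested. Vwf, the adhesive protein of alpha granules, was at 174 and 8.41 CPM in Control and at 98.9 and 8.97 CPM in KO-labelled cells. Its ratio was 20.7 (18.3 to 23.5) and 11.0 (9.96 to 12.2). Rab27b, a small GTPase of dense granules, had contrasts of 3.15 and 2.54. Of the 21 measured genes of granule cargo and machinery, 13 were on the Pf4 side in Control and 14 in KO-labelled cells. The list's median contrast was 1.32 and 1.31, against 0.04 and 0.01 for all measured genes. Per gene, the median shift from Control to KO-labelled cells was -0.25, with 9 genes higher and 12 lower in contrast. This shift lay between -0.27 and 0.30 over the alternative settings, so it had no steady direction. Apoe, the apolipoprotein, was the 1 member on the Car1 side in both libraries, at 553 against 1710 CPM in Control.

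The starts of Pf4 and Klf1 are shown because they are the leading granule gene and the leading transcription factor of the opposite fates. They run from 250 bases before to 50 after the start in RefSeq, build GRCm38.p6, and capitals mark matches on either strand to the 3 motifs searched. The GATA-type motif was AGATAA. The motif of the ETS type, searched in the same windows of all promoters, was CCGGAA. The motif of the RUNX type, searched in the same way, was TGTGGT.
Pf4, chr5:90772185-90772484, plus strand: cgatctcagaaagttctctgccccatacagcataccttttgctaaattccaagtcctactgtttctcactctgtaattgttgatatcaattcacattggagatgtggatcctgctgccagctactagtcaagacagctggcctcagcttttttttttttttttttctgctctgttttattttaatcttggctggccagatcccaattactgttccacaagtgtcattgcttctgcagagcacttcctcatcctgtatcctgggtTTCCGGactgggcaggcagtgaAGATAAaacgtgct
Klf1, chr8:84901732-84902031, plus strand: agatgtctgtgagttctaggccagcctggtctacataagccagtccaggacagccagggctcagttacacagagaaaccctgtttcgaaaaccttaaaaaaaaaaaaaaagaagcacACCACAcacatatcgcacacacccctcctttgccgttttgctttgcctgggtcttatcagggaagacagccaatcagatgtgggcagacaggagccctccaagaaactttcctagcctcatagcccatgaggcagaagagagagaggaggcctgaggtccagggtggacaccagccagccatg
The Pf4 start holds 1 GATA-type and 1 ETS-type match, and the Klf1 start holds 1 RUNX-type match. The starts of Itga2b and Ermap were read too and hold no match to any of the 3 motifs. Among the Pf4-side genes in common, 99 of 162 had 1 promoter in the table, of which 10.1% held the GATA, 18.2% the ETS and 16.2% the RUNX letters. Among the Car1-side genes in common, with 47 of 85 in the table, the shares were 12.8%, 17.0% and 14.9%. All 22862 promoters of this length gave 11.5%, 15.1% and 17.1%, and the measured genes 5.60%, 35.7% and 11.9%. The shares of both sides were near those of all promoters for each motif. Against the measured genes, from which both sides were drawn, their GATA and RUNX shares were higher and their ETS shares lower. These differences were not tested, and a match or its absence says nothing of a factor's binding.

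The surface receptors of platelets were higher in KO-labelled cells in both classes. Their median contrast over 21 measured genes was 1.56 in Control and 1.85 in KO-labelled cells, with 18 and 20 genes on the Pf4 side. The median level was higher by 1.05 on the log2 scale in the Pf4 class and by 0.91 in the Car1 class. Itga2b, the integrin subunit CD41, was at 553 CPM in the Pf4 and 69.0 in the Car1 class in Control, and at 1347 and 322 in KO-labelled cells. Its contrast was thus smaller, 2.03 against 2.83, although its level was higher in both classes. Treml1, a receptor of platelet alpha granules, was at 220 and 17.0 CPM and then at 745 and 164, with contrasts of 3.09 and 2.12. Gp9, part of the receptor for von Willebrand factor, was parted about alike, with contrasts of 2.02 and 2.26. Gene by gene the median shift was -0.01, with 10 genes higher and 11 lower in contrast, and it lay between -0.41 and 0.58 over the alternatives, so the list's contrast had no steady direction.

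Clec1b, Thbs1, Alox12 and Ppbp were higher in both classes of the KO-labelled library, unlike Pf4 and Vwf. Clec1b, the podoplanin receptor CLEC-2, was at 36.6 and 1.18 CPM in the Pf4 and Car1 classes in Control, and at 438 and 26.1 CPM in KO-labelled cells. Thbs1, thrombospondin 1, was at 30.4 and 1.62 CPM, then at 338 and 20.3. Alox12, the platelet lipoxygenase, was at 3.66 and 0.13 CPM, then at 102 and 4.53. Thus these 3 genes were higher in the KO-labelled Pf4 class, by 12.0-fold (10.2 to 14.1), 11.1-fold (9.37 to 13.3) and 27.8-fold (17.1 to 48.7). They were also higher in the Car1 class, by 22.1-fold (16.8 to 29.7), 12.5-fold (9.87 to 16.1) and 33.9-fold (15.3 to 93.4). In the Gstm1/CD63 class Clec1b went from 0.28 to 9.85 CPM, Thbs1 from 0.22 to 8.46 and Alox12 from 0 to 2.12, and the part of free RNA in the Car1-class levels was not tested. On the scale with 10 CPM added, the 3 contrasts shifted towards the Pf4 class by 1.57, 1.72 and 2.51. Without any added CPM the shifts were -0.89, -0.17 and -0.29, so the direction for these genes depends on the added CPM, which damps the very low Control levels. Ppbp, a second platelet chemokine, was at 16.0 and 0.44 CPM and then at 144 and 3.08. It was 8.98-fold higher (7.09 to 11.5) in the KO-labelled Pf4 class and 6.92-fold higher (4.33 to 11.6) in the Car1 class. Its shift was 2.24 with and 0.38 without added CPM.

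Signalling and cytoskeletal genes of platelets lay on the same side. Cavin2, a caveolar coat protein, had contrasts of 3.49 and 3.27, Plek (pleckstrin, a kinase C substrate of platelets) 3.22 and 2.63, and Rap1b, the GTPase that activates integrins, 3.18 and 2.35. Of 23 measured signalling and eicosanoid genes, 17 and 19 were on the Pf4 side, with median contrasts of 1.48 and 1.59. Their median shift per gene was nevertheless -0.07, with 14 of 23 lower, and lay between -0.20 and 0.21 over the alternatives. The cytoskeleton list was nearer to 0, at 0.74 and 0.72, with 6 and 5 of 17 genes on the Pf4 side. Its leading member Lims1, an integrin adaptor, had contrasts of 2.37 and 2.23.

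**Figure D2:**
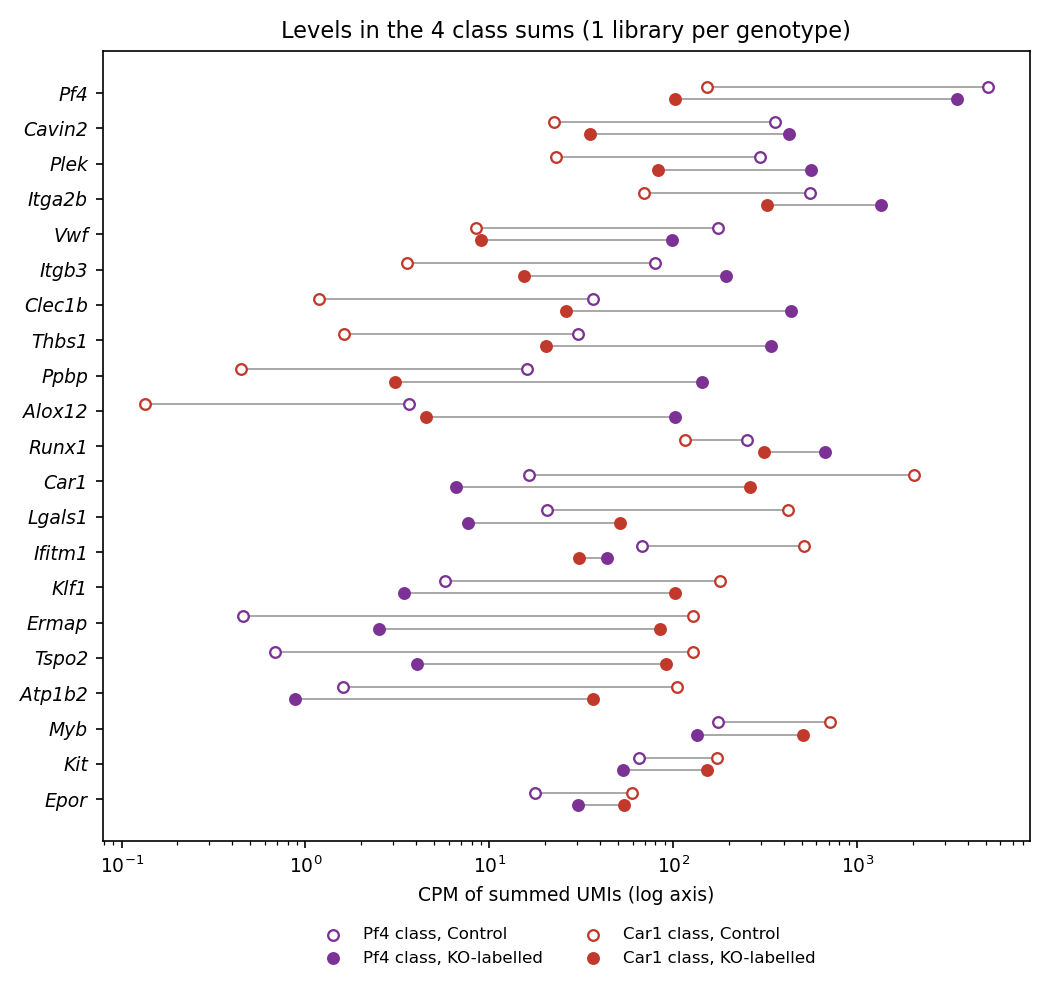
CPM of summed UMIs on a log axis for 21 genes in the Pf4 class (purple) and the Car1 class (red) of Control (open circles) and the KO-labelled library (filled circles), with a line joining the classes of a library. Clec1b, Thbs1, Ppbp and Alox12 are higher in both classes of the KO-labelled library, and the Car1-class level is lower there for Car1, Lgals1 and Ifitm1.

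Transcription factors parted the fates less than their targets did, apart from Klf1. Klf1 was at 5.72 CPM in the Pf4 and 180 in the Car1 class in Control, and at 3.42 and 102 in KO-labelled cells, contrasts of -3.60 and -3.07. The ratio of its levels was 31.5 (21.3 to 48.8) in Control and 29.9 (24.2 to 37.5) in KO-labelled cells, so both classes were lower by a like factor. Nfia, a nuclear factor linked to erythroid fate, was at 7.78 and 61.7 CPM and then at 6.49 and 18.3, contrasts of -2.01 and -0.78. Bcl11a, known for fetal globin silencing, was nearly the same, at -1.38 and -1.40. Of 11 measured erythroid factors 5 were on the Car1 side in Control and 2 in KO-labelled cells.

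On the megakaryocyte side, Fli1 was at 339 and 59.5 CPM in the Pf4 and Car1 classes of Control and at 357 and 119 CPM in KO-labelled cells. It had contrasts of 2.33 and 1.51, Mef2c 2.24 and 2.01, and Meis1 1.55 and 1.20. Runx1 had a contrast of 1.06 in Control and 1.08 in KO-labelled cells, the same distance at higher levels. Of 9 measured factors of this list 6 and 5 were on the Pf4 side, and 6 of 9 had a lower contrast in KO-labelled cells. Gata2 did not part the classes, with contrasts of -0.13 and -0.12.

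The factors both fates use lay mostly between the fates, at medians of -0.31 and -0.02. Gata1 was at 61.5 CPM in the Pf4 and 115 in the Car1 class in Control and at 116 and 117 in KO-labelled cells, contrasts of -0.81 and 0.00. Lyl1, a partner of the GATA complex, was at 37.3 and 70.2 CPM, then at 192 and 139, contrasts of -0.76 and 0.45. Myb, which is known to hold back megakaryocyte formation, stayed on the Car1 side, at 175 and 710 CPM in Control and 134 and 510 CPM in KO-labelled cells. Ikzf1 also lay there, with contrasts of -1.55 and -1.18.

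The erythroid side was led by Car1. Car1 was at 16.5 CPM in the Pf4 and 2034 in the Car1 class in Control, and at 6.61 and 261 CPM in KO-labelled cells. Its level in the Car1 class was 7.79 times as high in Control as in KO-labelled cells, and the ratio between the classes was 124 (98.1 to 158) and 39.5 (33.9 to 46.4). The lower level was not particular to these classes. Car1 went from 3414 to 716 CPM in the later erythroid Hba-a2 class, and from 34.4 to 8.46 CPM in the Gstm1/CD63 class. Ermap, an erythroid membrane protein, had 2 UMIs in the Control Pf4 class, with 127 CPM in the Car1 class, and 2.51 and 84.2 CPM in KO-labelled cells. The Car1 class was higher by 278-fold with a counting interval of 76.9 to 2297 in Control, and by 33.6-fold (26.2 to 43.8) in KO-labelled cells. Tspo2, a translocator protein of red cell precursors, was at 128 and 91.6 CPM in the Car1 classes, with contrasts of -3.70 and -2.85. Trib2, a pseudokinase, had 0 UMIs in the Control Pf4 class and was at least 142-fold higher in the Car1 class at 97.3 CPM (floor of 3 counts over the class); in KO-labelled cells it was at 16.4 and 80.1 CPM.

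Other erythroid groups had smaller contrasts. Of 15 measured genes of the red cell membrane and blood group list, 9 were on the Car1 side in Control and 5 in KO-labelled cells, with median contrasts of -1.08 and -0.81. The urea transporter gene Slc14a1 of this list lay on the Pf4 side, with contrasts of 2.33 and 1.69, as did Cited2, a transcriptional coactivator from the early erythroid list, with 2.40 and 1.82. Haem synthesis had a median of -0.81 and -0.62 over 7 measured genes, and Cpox, coproporphyrinogen oxidase, was higher in the KO-labelled Car1 class, at 162 against 109 CPM. Iron handling lay at -0.36 and -0.20, with the transferrin receptors Tfrc and Tfr2 among the 4 of 10 genes on the Car1 side in both. The median shifts per gene of these 3 lists changed sign over the alternatives, from -0.11 to 0.30 for the membrane, -0.05 to 0.17 for haem and -0.11 to 0.23 for iron. Of the cytokine receptors Epor was at 17.6 and 59.5 CPM in Control and 30.2 and 53.9 CPM in KO-labelled cells, and Kit at 65.2 and 174, then at 53.0 and 152.

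The spread of the contrast over the 5288 genes was smaller in KO-labelled cells. Its SD over genes was 0.57 in Control and 0.51 in KO-labelled cells, a ratio of 0.894. Over the 340 genes whose mean contrast of both libraries was past 2-fold, the median size of the contrast was 1.53 and 1.32. The sides did not contribute alike. For the 119 Car1-side genes the median went from -1.78 to -1.28 and 106 were nearer to 0, while for the 221 Pf4-side genes it went from 1.45 to 1.37 and 127 were nearer to 0. The Car1-side genes were lower in the KO-labelled Car1 class by a median of 0.37 on the log2 scale and about level in the Pf4 class, at 0.02. The Pf4-side genes were higher by 0.53 in the Pf4 class and by 0.52 in the Car1 class. The small difference on the Pf4 side changed direction with the setting: with 50 CPM added, with each cell weighted equally and with cells thinned to 5000 UMIs the median was larger in KO-labelled cells. The Car1 side was nearer to 0 there under each of these.

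The spread depended on which cells were counted. When the Pf4 class was restricted to cells with more megakaryocyte than erythroid marker UMIs, and the Car1 class to the reverse, 97.7% and 90.3% of the cells were kept in Control and 99.7% and 54.8% in KO-labelled cells. The marker genes themselves were left out of this comparison, though genes that go with them are also moved by such a choice of cells. The ratio of the SDs then became 1.06, above 1, and the Pf4-side median was 1.31 in Control and 1.68 in KO-labelled cells. The Car1-side median was -1.60 and -1.39. The choice of cells rests on the marker balance that itself differs between the libraries, so this ratio is in part set by it. Leaving out the 26 marker genes but keeping the cells gave a ratio of 0.898, and drawing each class to equal UMIs in both libraries gave 0.900.

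**Figure D3:**
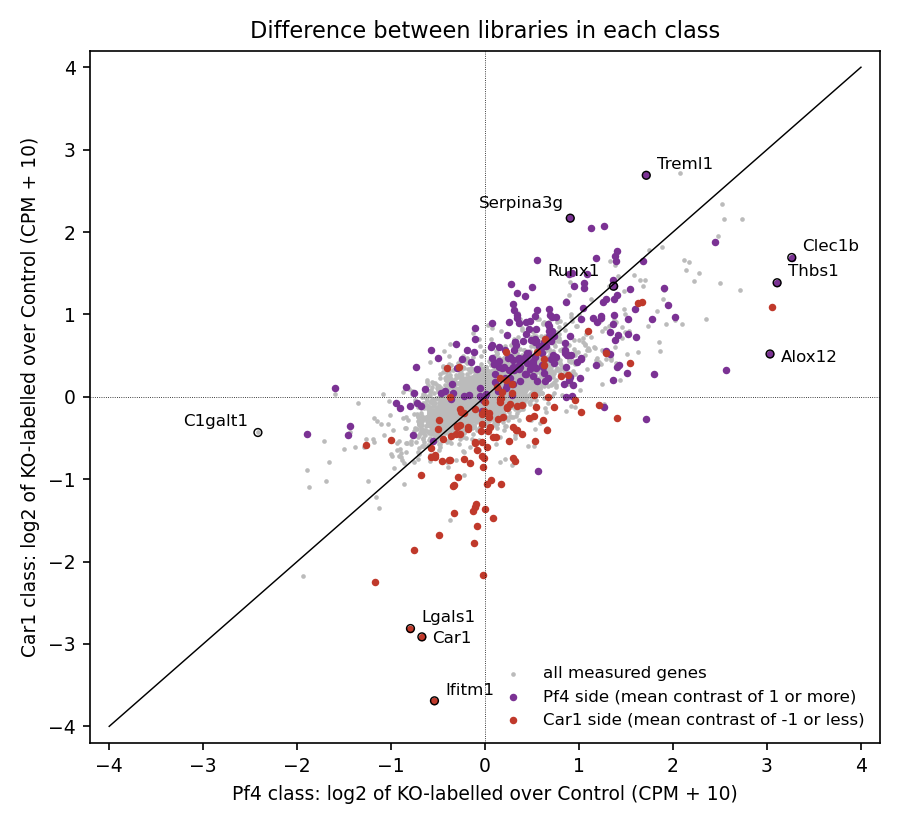
Log2 of the KO-labelled over the Control level (CPM + 10) in the Pf4 class (x axis) and in the Car1 class (y axis), 1 point per measured gene, coloured by the side of the mean contrast. Most Pf4-side genes lie in the upper right, higher in both classes, and many Car1-side genes lie below 0 on the y axis near 0 on the x axis.

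In single cells, megakaryocyte transcripts were more widespread in the KO-labelled than in the Control Car1 class, while erythroid transcripts were about as widespread in both Pf4 classes. Each cell was thinned to 5000 UMIs, which left out 17 and 113 shallower Pf4-class and Car1-class cells in Control and 84 and 82 in KO-labelled cells. At least 3 megakaryocyte marker UMIs were present in 15.1% of Control Car1-class cells (13.6 to 16.7%) and in 57.5% of KO-labelled ones (55.7 to 59.3%). The converse share, Pf4-class cells with at least 3 erythroid marker UMIs, was 43.9% (37.0 to 51.0%) and 46.2% (43.8 to 48.6%), intervals that overlap. Both lists together were present in 10.5% of Control and 36.2% of KO-labelled Car1-class cells. Without thinning, the share of Car1-class cells with megakaryocyte UMIs was 40.2% and 85.6%, and that of Pf4-class cells with erythroid UMIs 93.7% and 87.3%.

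The Gstm1/CD63 class, neutrophil-lineage cells that should lack both lists, was read at the same depth for comparison. Its share with megakaryocyte UMIs was 1.18% in Control and 6.43% in KO-labelled cells, with median UMIs of 28810 and 26825 per cell before thinning, and its share with erythroid UMIs was 5.05% and 3.37%. The Car1-class shares lay far above these, and the part of free RNA in the shares of either class was not tested. The CD34 class, named after a surface protein of less committed progenitors, went the same way as the Car1 class, with 8.26% and 43.5% of cells holding megakaryocyte UMIs. Cells with more megakaryocyte than erythroid UMIs made up 8.82% of the Control and 40.2% of the KO-labelled Car1 class, and 2.00% and 5.85% had equal numbers and so lay on the line. Doublets were called in 2.26% and 2.80% of Car1-class cells, and without them the shares with megakaryocyte UMIs were 15.03% and 57.14%.

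**Figure D4:**
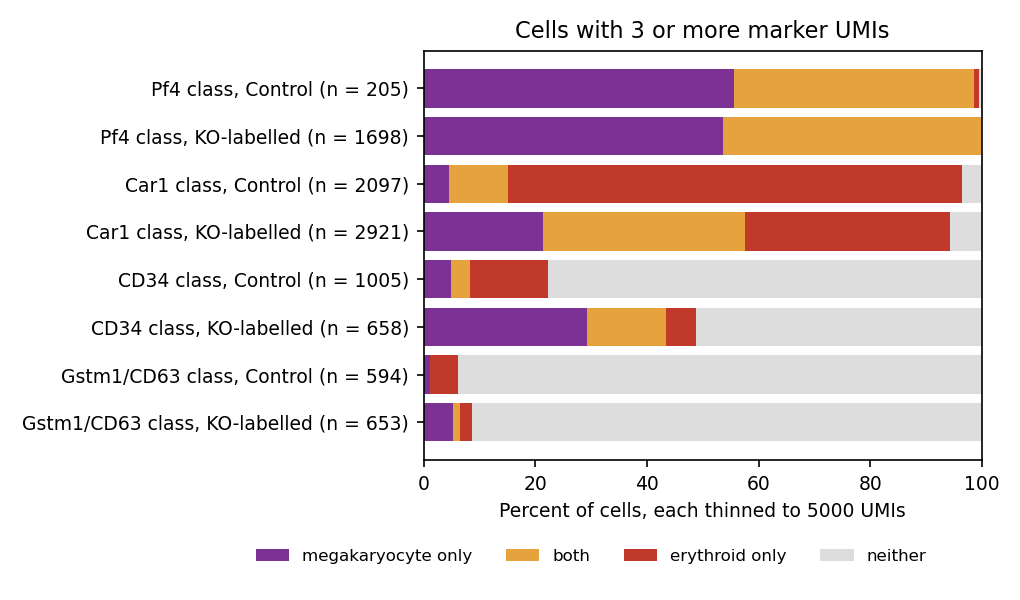
Percent of cells, each thinned to 5000 UMIs, with 3 or more UMIs of the megakaryocyte markers only, of both lists, of the erythroid markers only or of neither, by class and library, with the number of cells in brackets. The purple and orange parts reach 15.1% of Car1-class cells in Control and 57.5% in KO-labelled cells, while both Pf4-class bars are nearly alike.

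Levels of genes outside the marker lists differed between the kept and the remaining Car1-class cells. In the KO-labelled library the 1646 kept cells held Rap1b at 153 CPM and the 1357 remaining cells at 738 CPM, against 90.3 CPM in the 1995 kept Control cells. Plek was at 32.0 CPM in the kept and 147 in the remaining cells, against 9.19 in kept Control cells. Several erythroid genes were no lower in the kept KO-labelled cells than in kept Control cells: Tspo2 was at 153 against 141 CPM, Trib2 at 110 against 107, Cd24a at 220 against 154, and Cpox at 233 against 116. Other genes, on the Car1 side in Control but not all erythroid, were lower in kept cells too. Lgals1 was at 69.0 against 455 CPM, Ifitm1 at 20.4 against 557, Ces2g at 53.7 against 132, Atp1b2 at 63.0 against 115 and Scin at 0.93 against 41.2. Choosing cells by erythroid markers also raises genes that go with them, and 90.3% of the Control but 54.8% of the KO-labelled Car1 class was kept.

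The contrast shifted by 2-fold or more between the libraries for 60 genes (1.13%) towards the Pf4 class and for 17 genes (0.321%) towards the Car1 class. Of the 60, the Pf4 class differed more between libraries for 34 and the Car1 class for 26, and the gap was narrower in KO-labelled cells for 38 and wider for 22. All 17 shifted towards the Car1 class had a narrower gap. With a limit of 1.5-fold the counts were 158 and 140, a far more even split. Ifitm1, an interferon-induced membrane protein on chromosome 7, shifted most of the named genes with 10 CPM added. Over the alternative settings the shift reached 4.398 for Trib2 and 4.226 for Scin, against at most 3.715 for Ifitm1. Ifitm1 was at 67.7 CPM in the Pf4 and 515 in the Car1 class in Control, and at 43.5 and 30.6 CPM in KO-labelled cells. Its contrast went from -2.75 to 0.40, and its Car1-class level was 16.8 times as high in Control. Lgals1, galectin 1, was at 20.6 and 423 CPM, then at 7.64 and 51.6, a shift of 2.02. Slpi, a secreted protease inhibitor, was at 29.96 and 7.61 CPM and then at 121 and 4.55, so that its ratio was 3.94 (3.19 to 4.83) and 26.6 (23.3 to 30.6). Scin, the actin-severing protein adseverin, was at 38.0 CPM in the Control and 0.76 in the KO-labelled Car1 class, with 1 UMI in each Pf4 class. Several basophil and mast cell markers were also lower in the KO-labelled Car1 class. Hdc went from 38.2 to 7.44 CPM, Mcpt8 from 6.36 to 0.22, Gzmb from 9.14 to 0 and Prss34 from 7.68 to 0. Ms4a2 went from 23.9 to 16.1 CPM. Cpa3, the highest of the list in that class, went the other way, from 51.0 to 71.1 CPM. The part of basophil and mast cell transcripts in this result was not tested.

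For 13 of the 17 genes shifted towards the Car1 class, the Pf4 class was the one that differed more between libraries. C1galt1, the enzyme that makes the core of O-linked glycans, was at 187 CPM in the Pf4 and 45.3 in the Car1 class in Control, and at 26.9 and 31.0 in KO-labelled cells. The Pf4 class was 4.13 times the Car1 class (3.80 to 4.48) in Control and 0.868 times it (0.792 to 0.951) in KO-labelled cells. Ehd3, an endosomal protein, was at 83.7 and 3.72 CPM, then at 21.1 and 4.73. Hmgn3, a nucleosome-binding protein, was at 90.4 and 8.03 CPM, then at 17.0 and 3.24. Ckap2l, a mitotic spindle protein, was at 113 and 29.1 CPM in Control, and its contrast went from 1.65 to 0.02. The shifts of Ifitm1, Lgals1, Slpi and C1galt1 were past 2-fold in the same direction under all 12 alternative settings, and those of Ehd3 and Hmgn3 under 11.

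Cell cycle genes shifted together, though no G2/M or S phase gene of the lists passed 2-fold. The median contrast of 25 measured G2/M genes was 0.52 in Control and -0.09 in KO-labelled cells, and all 25 had a lower contrast there, against 2849 of 5288 measured genes. Ccnb1, cyclin B1, was at 83.5 and 49.6 CPM in Control and at 66.1 and 60.3 CPM in KO-labelled cells. Cenpf, a centromere protein, was at 137 and 80.9 CPM and then at 96.0 and 87.3. S phase genes had medians of 0.08 and -0.36, with 23 of 25 lower, and ribosome biogenesis genes -0.24 and -0.46, with 24 of 25 lower. The levels were lower in the KO-labelled Pf4 class by medians of 0.33 for G2/M, 0.30 for S phase and 0.50 for ribosome biogenesis on the log2 scale. In the Car1 class they were higher by 0.24 for G2/M and 0.03 for S phase, and lower by 0.26 for ribosome biogenesis. In thinned cells the median G2/M UMIs were 8 in Control and 5 in KO-labelled Pf4-class cells, and 7 and 8 in Car1-class cells. The G2/M median shift lay between -0.68 and -0.35 over the 12 alternatives. Over the kept cells alone it was -0.48.

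**Figure D5:**
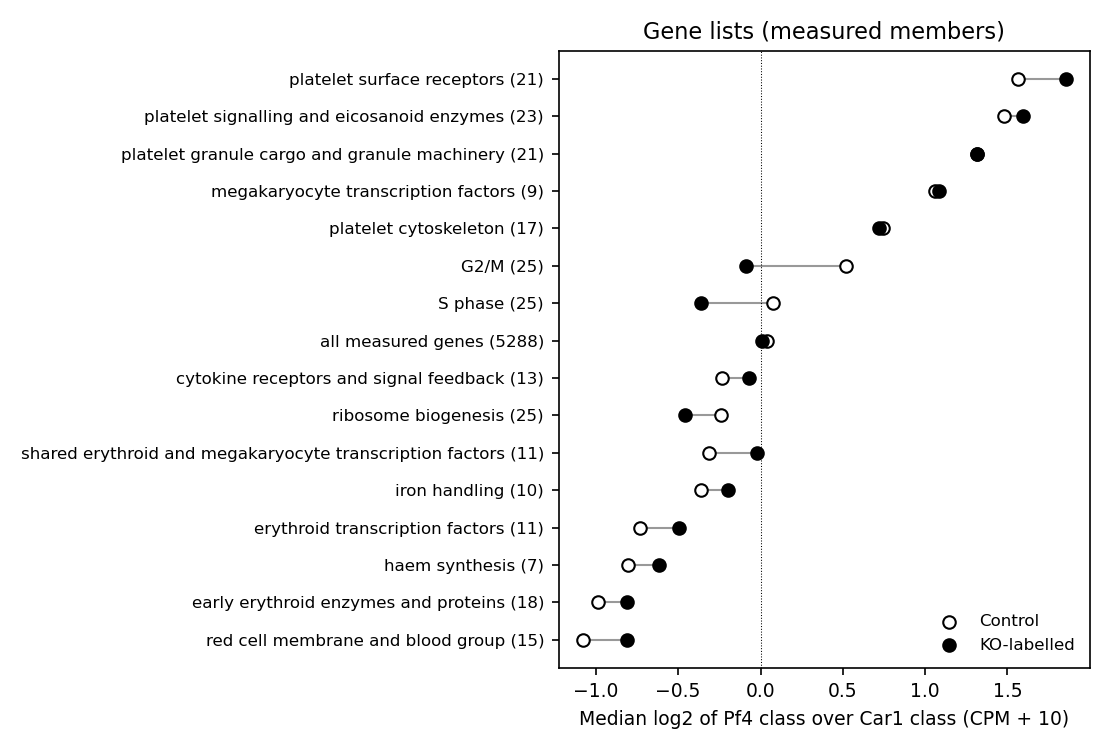
Median contrast (log2 of the Pf4 class over the Car1 class, CPM + 10) of the measured members of each gene list, their number in brackets, in Control (open) and the KO-labelled library (filled). The erythroid lists lie left of 0 and nearer to it in KO-labelled cells, and G2/M goes from 0.52 to -0.09.

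The CD34 class of the same library served as a reference for the side from which the fates parted. Among the 162 Pf4-side genes in common, 116 were at least 2-fold above CD34 in the Control Pf4 class and 124 in the KO-labelled one, while only 15 and 4 were 2-fold below CD34 in the Car1 class. Among the 85 Car1-side genes in common, 54 and 46 were 2-fold above CD34 in the Car1 class, and 23 and 23 were 2-fold below CD34 in the Pf4 class. A gene near 0 in CD34, such as Clec1b and Ppbp, both at 0.09 CPM in Control, cannot be 2-fold below it with 10 CPM added, so the counts on either side of CD34 are not alike in reach. The reference itself differed between libraries, since Itga2b was at 65.8 CPM in the Control and 286 CPM in the KO-labelled CD34 class, and Ifitm1 at 367 and 202.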

How the data were processed

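Single-cell RNA was measured in 2 libraries, Control and Runx1 KO. The authors deposited UMI counts for 14795 cells and 31053 genes. The submitters' processing notes name Cell Ranger and mm10, and the sources used here do not say how the 18 classes were made. The deposited annotation also holds the fraction of mitochondrial UMIs, and other values (library and class). The library named WT there was taken as Control. All 14795 cell sums equalled the annotated UMIs, and 13 barcodes occurred in both libraries.

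UMIs were summed per class and library and scaled to CPM. The contrast is log2 of Pf4 over Car1 class CPM, after adding 10, and the shift is the KO-labelled minus the Control contrast. No test was run with 1 library per group. Ratios carry exact Poisson and shares exact (Clopper-Pearson) 95% intervals. Doublets were called with Scrublet (scanpy 1.11.5). Named genes were the 12 highest and 12 lowest by mean contrast, the 8 highest and 8 lowest by shift, up to 4 per list by mean contrast, and Runx1, Pf4 and Car1; other genes, among them Itga2b, Gp9, Gata1, Gata2, Lyl1, Apoe and Epor, were named after their values were seen. Members and lists were chosen with earlier results of these data known. Of the gene identifiers, 31011 matched GENCODE M21 (99.9%). Calculations were tested on simulated data.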

Additional observations from a re-analysis of the deposited data

Results flagged for a closer look

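Both genes below were past 2-fold between the classes in 1 library and of the opposite sign in the other; the difference between the libraries was not tested. Ifitm1 had a shift of 3.15 on the log2 scale, from a contrast of -2.75 in Control to 0.40 in the KO-labelled library. C1galt1 had a shift of -1.98, from 1.83 to -0.15.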

How the results depend on the processing

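The Control Pf4 class, with 222 cells, limits the precision, and Control Pf4-class levels under about 1 CPM rest on few UMIs. Counts are given as Pf4 side, then Car1 side, and medians as Control, then KO-labelled; the cause of each difference was not tested. With 1 CPM added, 148 genes were on the Car1 side in KO-labelled cells, 48 shifted towards Car1, the Pf4-side medians were 1.736 and 1.507, the Car1-side medians -1.94 and -1.473, and the shift of Clec1b was reversed at -0.091. With 50 CPM added, Control had 71 and 45 genes and KO-labelled cells 81 and 25, the shifts numbered 12 towards Pf4 and 3 towards Car1, and the Control medians were 1.252 and -1.657. With a minimum of 10 CPM the Control Car1-side median was -1.614. With a minimum of 100 CPM, Control had 132 and 57 genes and KO-labelled cells 109 and 42, 25 shifted towards Pf4 and 9 towards Car1, the Control Pf4-side median was 1.56, and the Car1-side medians were -1.981 and -1.485. With calls at 4-fold, Control had 52 and 43 genes and KO-labelled cells 45 and 13. With shifts called at 1.5-fold there were 158 and 140. Thinned cells gave 28 shifts towards Car1. Cells matching their class by markers gave 338 Pf4-side genes in KO-labelled cells, an SD ratio of 1.06, Pf4-side medians of 1.305 and 1.677, and Car1-side medians of -1.60 and -1.393. Without the marker genes the Control Car1-side median was -1.667. The share of Car1-class cells with megakaryocyte UMIs was 25.13% and 71.59% at 2 UMIs, 7.821% and 37.28% at 5, and 40.23% and 85.61% unthinned. The share of Pf4-class cells with erythroid UMIs was 70.24% and 68.55%, 14.63% and 16.49%, and 93.69% and 87.32%. Without Pf4 and Car1 in the lists, the Control Car1-class share was 13.07%. The equal-UMI draw and both lists of omitted genes were chosen after seeing the data. Centring the contrasts, leaving out doublets or cells of 10% or more mitochondrial UMIs, and weighting cells equally left each count within 1.5 times and each median within 0.1. No paired analysis was possible because each group has 1 library.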
